A study of Mus musculus with 39 samples.

Results

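Pdgfrb, Eln, Fn1, Acta2, Tagln, Myh11, Rgs5, Vtn and Abcc9 are 9 genes of the vessel wall, its mural cells and its matrix. They were taken by symbol from a deposited table of 47561 genes, in which each symbol has 1 row. The table holds mouse brain RNA, as FPKM (a level scaled to transcript length and library size), in 39 libraries of 13 groups with 3 biological replicates each. In 12 groups mice had received soman, an organophosphorus nerve agent that inhibits acetylcholinesterase, under the skin, and brains were taken at day 1, 3, 7 or 14. The dose is given as a share of the LD50, the median lethal dose, and was 1/2, 1/5 or 1/10. The remaining group had received saline. The labels give the tissue as brain with no region, and they name no strain, sex or age, no day for the saline group, and no number of animals per library. The p-values therefore measure the spread between these libraries, and a day cannot be told apart from anything else its libraries share.

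Brain arterioles are wrapped in smooth muscle cells, whose contraction is carried by actin and myosin isoforms such as those encoded by Acta2 and Myh11. Capillaries are covered by pericytes, which are recruited through the receptor encoded by Pdgfrb when endothelium secretes its ligand, platelet-derived growth factor B. Both cell types are embedded in basement membrane, and larger vessels also carry elastic fibres built on elastin.

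The matrix genes Eln and Fn1 and the receptor gene Pdgfrb were lower at day 14 than at day 1, and no library of day 14 reached the lowest of day 1 for any of the 3 genes. Genes of several other kinds, among them Col4a1, Notch3, Fbn1 and Kdr, were separated in the same way. The share of all tested genes so separated is not known. Mean Eln FPKM at day 14 was 0.435 of that at day 1, Fn1 0.640 and Pdgfrb 0.692. The same 3 genes were lower at day 14 than in saline, although that comparison depended on single saline libraries. Vtn, Rgs5, Abcc9 and the contractile genes Acta2, Tagln and Myh11 did not pass the test between day 14 and day 1. None of the 9 passed it between doses over all days.

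Depth per library is unknown, because the files used here hold no counts. Summed FPKM per library ranged between 296322 and 342231. Mitochondrial genes took a median of 9.6% of that sum, but 21.7% and 25.9% in replicates 2 and 3 of 1/10 LD50 at day 7. A set of 7 libraries, 1 of them also of high mitochondrial share, lay midway between the other 2 of their group at 37.2% to 69.7% of the genes over 2-fold apart between those 2, a higher share than in any library of another group. They were replicate 3 of saline, every replicate 3 of day 1, replicate 2 of the lowest dose on day 7, and replicate 3 of the lowest and middle dose on day 14. Markers of brain cells were abundant, with Snap25 of neurons at a mean of 706 FPKM in soman and 674 FPKM in saline libraries. In whole-tissue RNA, fewer cells of a type and less RNA per cell cannot be told apart.

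Eln encodes tropoelastin, the soluble precursor of elastic fibres. At day 1 its level was 6.87, 8.42 and 7.51 FPKM at 1/10 LD50, 7.76, 8.72 and 8.23 FPKM at 1/5 LD50, and 11.4, 11.2 and 10.7 FPKM at 1/2 LD50. At day 3 it was 7.69, 6.56 and 7.36 FPKM at 1/10 LD50, 9.02, 6.69 and 7.72 FPKM at 1/5 LD50, and 4.99, 5.74 and 8.37 FPKM at 1/2 LD50. The 3 libraries of 1/2 LD50 at day 1 stood above all 36 others. At day 7 Eln was at 6.65, 4.11 and 3.12 FPKM at 1/10 LD50, 4.33, 4.56 and 3.43 FPKM at 1/5 LD50, and 5.09, 4.44 and 5.77 FPKM at 1/2 LD50. At day 14 it was at 2.92, 3.10 and 3.83 FPKM at 1/10 LD50, 4.07, 5.46 and 4.43 FPKM at 1/5 LD50, and 4.46, 2.68 and 4.20 FPKM at 1/2 LD50. Saline libraries had 5.43, 7.85 and 6.92 FPKM, a range that overlaps every day, day 14 by 1 library at 1/5 LD50. Ordered by group mean, Eln ran from 11.1 ± 0.341 FPKM at 1/2 LD50 on day 1 to 3.28 ± 0.486 FPKM at 1/10 LD50 on day 14 (SD, n = 3 each), with saline at rank 6 with 6.73 ± 1.22 FPKM. Only the top group stood clear of its next neighbour in that order, the ranges of all other neighbours overlapping.

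Fn1 encodes fibronectin, a matrix glycoprotein that is bound by integrins. At day 1 it was at 11.7, 15.2 and 13.9 FPKM at 1/10 LD50, 13.2, 12.7 and 12.8 FPKM at 1/5 LD50, and 16.0, 14.7 and 14.8 FPKM at 1/2 LD50. At day 3 it was at 10.9, 13.1 and 10.9 FPKM at 1/10 LD50, 11.8, 9.40 and 12.4 FPKM at 1/5 LD50, and 14.0, 9.09 and 11.9 FPKM at 1/2 LD50. Of those 9 libraries of day 3, 7 lay below every saline library and 1 above. At day 7 Fn1 was at 10.0, 11.1 and 12.7 FPKM at 1/10 LD50, 7.62, 11.8 and 9.26 FPKM at 1/5 LD50, and 7.45, 7.08 and 8.82 FPKM at 1/2 LD50. At day 14 it was at 8.11, 7.59 and 8.54 FPKM at 1/10 LD50, 9.95, 8.19 and 9.30 FPKM at 1/5 LD50, and 9.40, 10.98 and 7.88 FPKM at 1/2 LD50. Saline libraries had 13.9, 12.4 and 12.6 FPKM, above all 9 libraries of day 14 and 8 of 9 of day 7. Among the 13 groups Fn1 was highest at 1/2 LD50 on day 1 (15.2 ± 0.721 FPKM) and lowest at 1/2 LD50 on day 7 (7.78 ± 0.919 FPKM), with saline at rank 3 with 12.9 ± 0.790 FPKM (SD, n = 3 each). The ranges of all neighbours in this order overlapped.

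Pdgfrb encodes the beta receptor of platelet-derived growth factor and marks pericytes and other mural cells. At day 1 it was at 5.77, 5.56 and 6.37 FPKM at 1/10 LD50, 5.93, 5.42 and 5.68 FPKM at 1/5 LD50, and 6.99, 6.52 and 6.12 FPKM at 1/2 LD50. At day 3 it was at 5.64, 5.72 and 5.21 FPKM at 1/10 LD50, 5.65, 5.56 and 5.88 FPKM at 1/5 LD50, and 4.53, 5.52 and 5.66 FPKM at 1/2 LD50. Of the 9 libraries of day 1, 6 lay above every saline library and none below. At day 7 it was at 5.86, 4.63 and 4.76 FPKM at 1/10 LD50, 4.59, 5.50 and 4.31 FPKM at 1/5 LD50, and 5.64, 5.04 and 5.32 FPKM at 1/2 LD50. At day 14 it was at 4.06, 3.69 and 4.01 FPKM at 1/10 LD50, 4.14, 4.52 and 4.43 FPKM at 1/5 LD50, and 4.36, 3.72 and 4.67 FPKM at 1/2 LD50. Saline libraries had 5.71, 5.37 and 5.12 FPKM, and all 9 libraries of day 14 lay below them. The 3 groups of day 14 were the lowest of the 13, at 4.36 ± 0.197 FPKM for 1/5 LD50, 4.25 ± 0.484 FPKM for 1/2 LD50 and 3.92 ± 0.198 FPKM for 1/10 LD50, against 5.40 ± 0.298 FPKM in saline (SD, n = 3 each), and the ranges at 1/5 and 1/10 LD50 did not overlap each other while both overlapped that at 1/2 LD50.

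**Figure D1:**
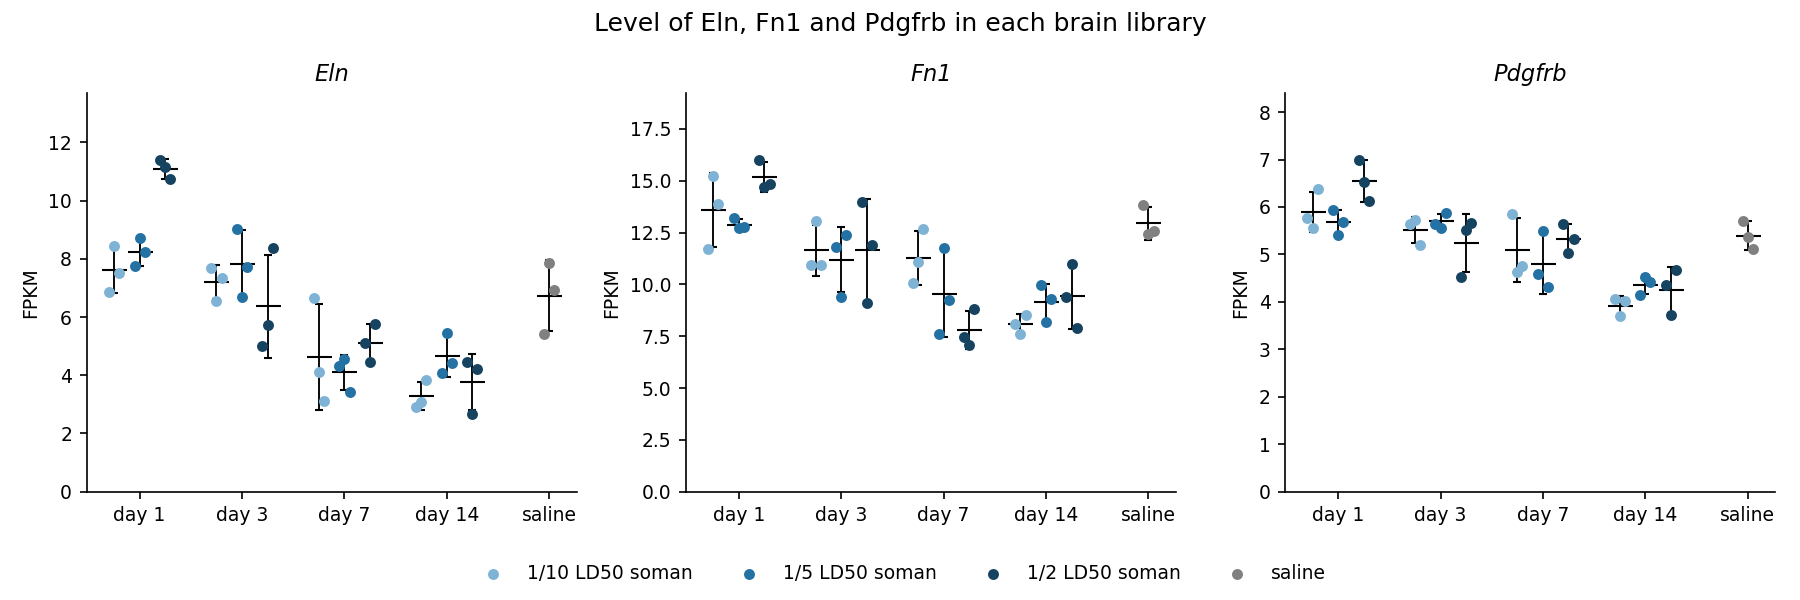
FPKM of Eln, Fn1 and Pdgfrb in each library (points) by day and dose, with saline at the right; horizontal lines are group means and bars are SD (n = 3). Eln of the 3 libraries of 1/2 LD50 at day 1 lies above 10 FPKM and every other library below it, and all day 14 libraries of Pdgfrb lie under 5 FPKM.

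Differences were tested with limma on log2(FPKM + 1) over 14701 genes, and they are given on that scale, which understates the change of low genes. Between day 14 and day 1 over the 3 doses, 3 of the 9 genes passed an adjusted p of 0.05, all lower at day 14, and 14.9% of all tested genes passed in either direction. Eln averaged 3.91 ± 0.885 FPKM at day 14 and 8.98 ± 1.69 FPKM at day 1 (SD, n = 9 each), and fell by 1.03 (SE 0.10, limma adjusted p = 2.1e-08). Fn1 averaged 8.88 ± 1.11 FPKM at day 14 and 13.9 ± 1.40 FPKM at day 1, and fell by 0.59 (SE 0.077, limma adjusted p = 3.2e-06). Pdgfrb averaged 4.18 ± 0.343 FPKM at day 14 and 6.04 ± 0.510 FPKM at day 1, and fell by 0.44 (SE 0.048, limma adjusted p = 1.3e-07). All 9 libraries of day 14 lay below all 9 of day 1 for each of the 3. The same held for genes outside the 9, such as the meningeal marker Col1a1 and the endothelial marker Kdr. The share of all tested genes so separated was not counted. The median difference of the 9 genes was -0.14, beside 0.0060 over all tested genes. The other members had differences of -0.25 for Rgs5, -0.14 for Vtn, -0.12 for Abcc9, -0.06 for Myh11, 0.03 for Tagln and 0.17 for Acta2, none past the threshold.

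Blood, meningeal and other markers moved between the same days. All 5 blood markers were lower at day 14, with a summed level of 161 to 517 FPKM at day 14, 387 to 1113 FPKM at day 1 and 795 to 926 FPKM in saline. Of 18 tested markers of meningeal fibroblasts, which also make matrix, 12 were lower at day 14 and none was higher, with a sum over the 19 listed markers of 89.2 to 104 FPKM at day 14, 103 to 137 FPKM at day 1 and 124 to 136 FPKM in saline. No marker of either list was at 0 throughout a group. With the summed blood markers as a covariate, a fit chosen after the data were seen, the differences between day 14 and day 1 were -0.92 for Eln, -0.49 for Fn1 and -0.38 for Pdgfrb (limma adjusted p = 0.00047, 0.013 and 0.0021). With the mean meningeal markers as a covariate, chosen in the same way, Eln was at -0.94 (limma adjusted p = 0.010), while Fn1 at -0.24 (adjusted p = 0.46) and Pdgfrb at -0.33 (adjusted p = 0.071) no longer passed. The summed meningeal markers of those days overlapped only between 103 and 104 FPKM. The covariate was instead the mean log2 level of the 18 tested markers, whose overlap was not computed. With 12 of the 18 lower at day 14 and none higher, that fit may not tell the markers apart from the day.

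**Figure D2:**
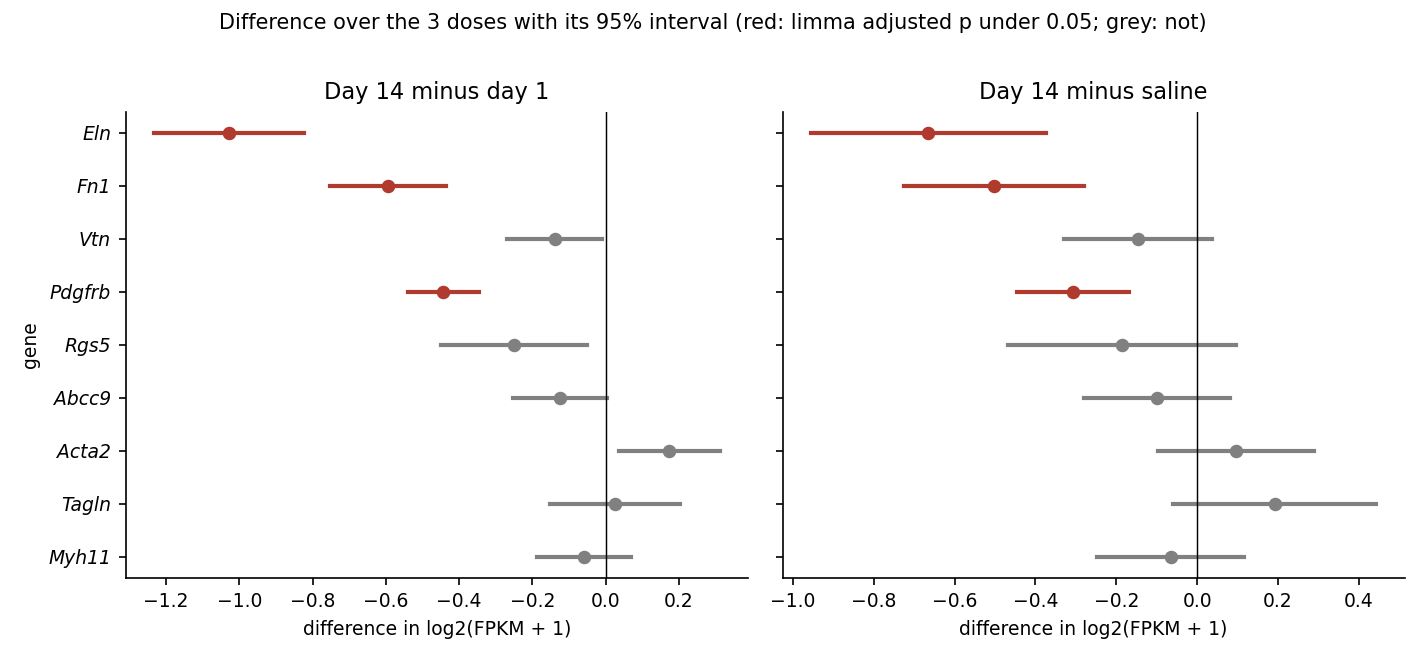
Difference of each of the 9 genes in log2(FPKM + 1) between day 14 and day 1 (left) and between day 14 and saline (right) over the 3 doses, with the 95% interval of the limma model. Eln, Fn1 and Pdgfrb (red) passed in both panels, at -1.03, -0.59 and -0.44 against day 1 and at -0.67, -0.50 and -0.31 against saline.

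Neighbouring days were compared in the same model. Between day 3 and day 1, 3 of 9 genes passed, beside 23.5% of all genes. Eln fell by 0.29 (SE 0.10, limma adjusted p = 0.033), Fn1 fell by 0.26 (SE 0.077, limma adjusted p = 0.016) and Acta2 rose by 0.18 (SE 0.067, limma adjusted p = 0.047). Among fits that left out 1 of the 18 libraries, Fn1 passed in all, Eln was lost in 7 (limma adjusted p of 0.0503 to 0.086) and Acta2 in 14 (limma adjusted p of 0.058 to 0.11). Between day 7 and day 3, Eln fell by 0.54 (SE 0.10, limma adjusted p = 0.0015) and Fn1 fell by 0.26 (SE 0.077, limma adjusted p = 0.042), which makes 2 of 9 genes beside 6.06% of all genes. Eln passed without any 1 of those 18 libraries, and Fn1 was lost without any of 12 of them (limma adjusted p of 0.053 to 0.096). With the meningeal covariate no gene passed in either comparison, and Fn1 at day 3 against day 1 stood at 0.10, on the opposite side.

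Between day 14 and day 7, Pdgfrb and the pericyte genes Rgs5 and Vtn fell, 3 of 9 genes beside 28.6% of all genes. Pdgfrb averaged 4.18 FPKM at day 14 and 5.07 FPKM at day 7, a fall by 0.23 (SE 0.048, limma adjusted p = 0.00059). Eln at -0.19 (limma adjusted p = 0.16) and Fn1 at -0.08 (limma adjusted p = 0.49) did not pass. In the F-test of any difference among days, Eln, Pdgfrb, Fn1, Rgs5 and Vtn passed, 5 of 9 genes beside 49.5% of all genes.

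Rgs5 encodes a regulator that speeds up GTP hydrolysis by G proteins and is a marker of brain pericytes. Its lowest, median and highest level was 12.8, 16.5 and 19.6 FPKM at day 1, 13.9, 18.4 and 24.3 FPKM at day 3, 14.6, 17.9 and 22.5 FPKM at day 7, and 12.2, 13.4 and 18.9 FPKM at day 14 (n = 9 each), against 17.0, 15.3 and 16.0 FPKM in the saline libraries. Of the 9 libraries of day 14, 7 lay below every saline library and 7 below every library of day 7. The fall between day 14 and day 7 was 0.37 (SE 0.098, limma adjusted p = 0.0052), and it passed without any 1 of those 18 libraries. It was lost without the 7 libraries that lay between others (limma adjusted p = 0.058).

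Vtn encodes vitronectin, an adhesive protein that binds integrins and whose RNA in brain is abundant in pericytes. It was the highest of the 9 genes in FPKM. Its lowest, median and highest level was 31.9, 34.2 and 41.5 FPKM at day 1, 34.3, 37.2 and 41.7 FPKM at day 3, 25.5, 37.3 and 44.3 FPKM at day 7, and 28.5, 31.7 and 35.3 FPKM at day 14 (n = 9 each), against 37.6, 34.5 and 34.0 FPKM in the saline libraries. Both extremes of day 7 were libraries of 1/10 LD50, and the lower, replicate 3, is 1 of the 2 of high mitochondrial share. The fall between day 14 and day 7 was 0.19 (SE 0.063, limma adjusted p = 0.024). It was lost without replicate 1 of 1/10 LD50 at day 7, replicate 1 of 1/2 LD50 at day 7 or replicate 2 of 1/10 LD50 at day 14 (limma adjusted p = 0.056, 0.063 and 0.057), the first of which moved the difference to -0.13. With the blood covariate Vtn was at -0.06 and Pdgfrb at -0.16 between these days (limma adjusted p = 0.66 and 0.099), and Rgs5 at -0.49 (limma adjusted p = 0.015).

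Abcc9 encodes the sulfonylurea receptor subunit of a potassium channel that pericytes and smooth muscle carry. Its lowest, median and highest level was 1.51, 1.88 and 2.19 FPKM at day 1, 1.40, 1.77 and 2.15 FPKM at day 3, 1.48, 1.90 and 2.24 FPKM at day 7, and 1.45, 1.67 and 1.85 FPKM at day 14 (n = 9 each), against 2.56, 1.53 and 1.59 FPKM in the saline libraries. Saline replicate 1 was the highest of all 39 libraries and the other 2 saline libraries were among the lower ones, so that all soman groups overlapped saline. Abcc9 passed in none of the comparisons (at day 14 against day 1 it was at -0.12, with a 95% interval of -0.25 to 0.0028 and a limma adjusted p of 0.19).

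Acta2 encodes the smooth muscle isoform of actin. The stretch before and around its RefSeq transcription start is shown because serum response factor, which drives contractile genes, binds CArG boxes there. It lies at chr19:34255324-34255623 on the minus strand of GRCm38.p6, from 250 bases before to 50 bases after the start, and capitals mark the CArG-type boxes.
Acta2: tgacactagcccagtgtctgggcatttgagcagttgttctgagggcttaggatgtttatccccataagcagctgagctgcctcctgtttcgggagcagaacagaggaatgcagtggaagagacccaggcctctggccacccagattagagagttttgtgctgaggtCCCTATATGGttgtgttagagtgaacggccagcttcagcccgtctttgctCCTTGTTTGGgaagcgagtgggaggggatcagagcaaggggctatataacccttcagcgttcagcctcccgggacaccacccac
The motif searched was CC, 6 bases of which at least 5 are A or T, and GG, which reads alike on both strands. The 2 boxes begin at -84 and -34 from the start and do not overlap. Of 32851 promoters of the same length in the table, 9.98% hold at least 1 such match and 0.822% hold 2 or more. The table holds 4 of the 9 genes, and Rgs5, Vtn and Abcc9 have no match in this window. Myh11 and Tagln are not among the 4, so their promoters were not searched. Srf, which encodes serum response factor, was at 0.12 at day 14 against day 1 (limma adjusted p = 0.084). Any part of this factor in the levels given here was not tested.

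Acta2 levels had a lowest, median and highest of 2.45, 2.82 and 3.64 FPKM at day 1, 2.51, 3.35 and 4.24 FPKM at day 3, 2.02, 3.26 and 4.32 FPKM at day 7, and 2.81, 3.34 and 3.89 FPKM at day 14 (n = 9 each), against 2.83, 3.33 and 2.97 FPKM in the saline libraries. The rise at day 3 against day 1 given above was the only call of Acta2 between days, and its interval against saline at day 14 reached from -0.10 to 0.29. At day 7 Acta2 was at 2.02, 3.19 and 2.81 FPKM at 1/5 LD50 and at 3.26, 3.56 and 3.94 FPKM at 1/10 LD50, with no overlap. That difference was -0.33 (SE 0.12, limma adjusted p = 0.033), the 1 call of the 9 genes in this contrast beside 27.6% of all genes. It was lost without 1/10 LD50 replicate 2 or 3 (limma adjusted p = 0.071 and 0.17) and without 1/5 LD50 replicate 1 or 3 (limma adjusted p = 0.24 and 0.053). Without both libraries of high mitochondrial share it was -0.23 (limma adjusted p = 0.66).

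Tagln encodes transgelin, an actin-binding protein of smooth muscle, and was the lowest of the 9, under 1 FPKM in 24 of 39 libraries. Its lowest, median and highest level was 0.411, 0.870 and 1.33 FPKM at day 1, 0.683, 0.872 and 1.77 FPKM at day 3, 0.736, 1.13 and 1.69 FPKM at day 7, and 0.631, 0.873 and 1.502 FPKM at day 14 (n = 9 each), against 0.753, 0.598 and 0.588 FPKM in the saline libraries. Of 36 soman libraries, 25 lay above every saline library and 1 below. Over all soman groups the difference from saline was 0.25 (SE 0.11, limma adjusted p = 0.24). Its call at day 7 is given with the other comparisons against saline.

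Myh11 encodes the smooth muscle myosin heavy chain. Its lowest, median and highest level was 1.09, 1.40 and 1.84 FPKM at day 1, 1.15, 1.39 and 1.77 FPKM at day 3, 0.897, 1.43 and 2.06 FPKM at day 7, and 0.995, 1.29 and 1.64 FPKM at day 14 (n = 9 each), against 1.42, 1.37 and 1.43 FPKM in the saline libraries. Saline libraries were close together, with 15 soman libraries above and 17 below all of them. Myh11 passed in no comparison. Between 1/2 and 1/10 LD50 over days its difference was 0.15, with a 95% interval of 0.04 to 0.26 (limma adjusted p = 0.15), and between 1/2 and 1/5 LD50 it was 0.16, with an interval of 0.05 to 0.28 (limma adjusted p = 1.00).

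**Figure D3:**
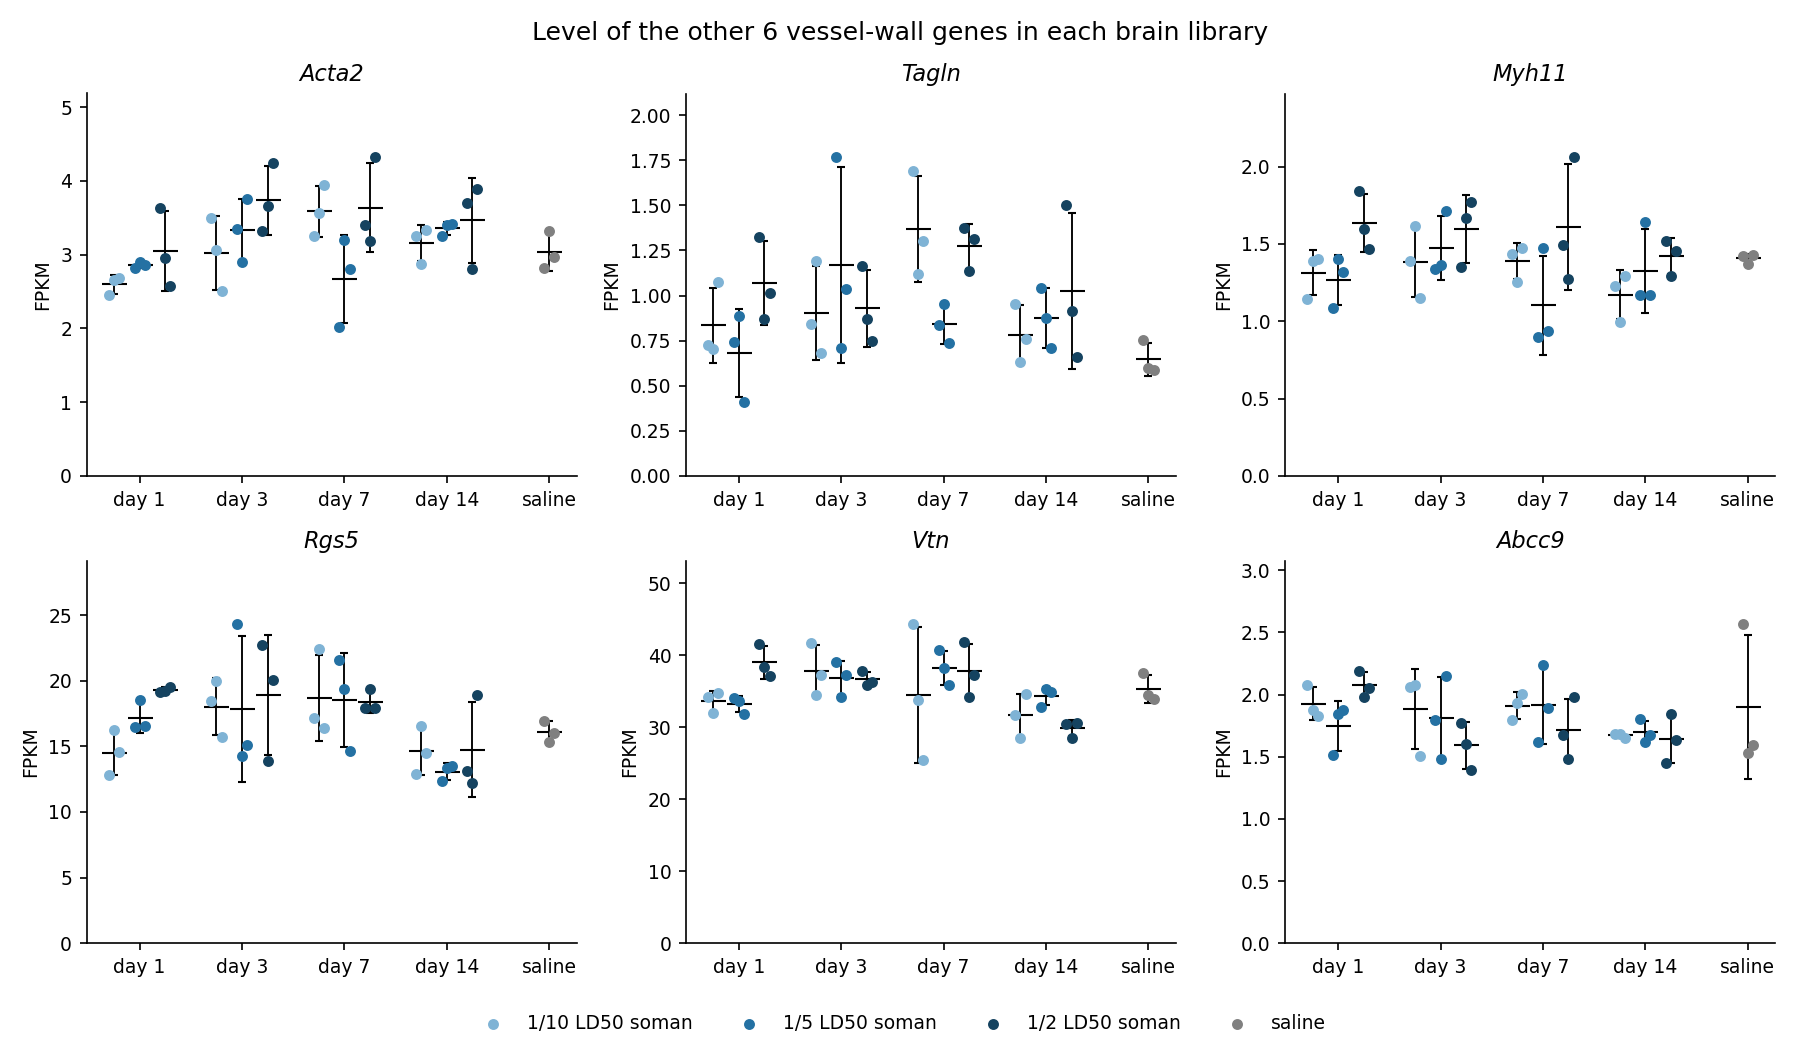
FPKM of Acta2, Tagln, Myh11, Rgs5, Vtn and Abcc9 in each library (points) by day and dose, with saline at the right; horizontal lines are group means and bars are SD (n = 3). Rgs5 and Vtn are lowest at day 14, at day means of 14.2 and 31.9 FPKM against 18.5 and 36.8 FPKM at day 7, and the saline libraries of Abcc9 span from 1.53 to 2.56 FPKM.

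Against saline, all comparisons share the same 3 saline libraries, so their results are not independent of each other. At day 14 over doses, 3 of the 9 genes passed beside 0.905% of all genes. Eln differed by -0.67 (SE 0.14, limma adjusted p = 0.015), Fn1 by -0.50 (SE 0.11, limma adjusted p = 0.018) and Pdgfrb by -0.31 (SE 0.067, limma adjusted p = 0.020). Below every saline library lay 8 of 9 day 14 libraries for Eln and 9 of 9 for Fn1 and Pdgfrb. Without saline replicate 2 or 3 the Eln call was lost (limma adjusted p = 0.21 and 0.12). Without saline replicate 1, 2 or 3 the calls of Fn1 (limma adjusted p = 0.15, 0.080 and 0.088) and of Pdgfrb (limma adjusted p = 0.18, 0.11 and 0.066) were lost. The differences themselves stayed within -0.56 to -0.79 for Eln, -0.46 to -0.54 for Fn1 and -0.27 to -0.34 for Pdgfrb over all single libraries left out. With the blood covariate the differences were -0.55 for Eln, -0.39 for Fn1 and -0.24 for Pdgfrb, and none of the 3 passed (limma adjusted p = 0.34, 0.38 and 0.39). With the meningeal covariate they were -0.54 for Eln, -0.02 for Fn1 and -0.15 for Pdgfrb, and none passed (limma adjusted p = 0.93, 1.00 and 0.98). The summed blood markers and the summed meningeal markers at day 14 lay wholly below those of saline. The blood fit could therefore not tell the markers apart from the group. The meningeal fit used the mean log2 level, whose overlap was not computed, so it may not tell them apart either.

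At day 7 over doses, 3 of 9 genes passed against saline, beside 14.6% of all genes. Tagln rose by 0.38 (SE 0.12, limma adjusted p = 0.034), Eln fell by 0.47 (SE 0.14, limma adjusted p = 0.023) and Fn1 fell by 0.43 (SE 0.11, limma adjusted p = 0.0083). Of 9 libraries of day 7, 8 lay above every saline library for Tagln, 7 below for Eln and 8 below for Fn1. Tagln was lost without saline replicate 1, 2 or 3 (limma adjusted p = 0.062, 0.12 and 0.15), without 1/5 LD50 replicate 2 (0.0505) and without 1/2 LD50 replicate 1 (0.055). Eln was lost without saline replicate 2 or 3 (limma adjusted p = 0.16 and 0.11), and without both libraries of high mitochondrial share (limma adjusted p = 0.11). Fn1 was lost without saline replicate 1 (limma adjusted p = 0.062). Of the meningeal markers 13 of 18 were lower at day 7 than in saline and none higher. With their mean as a covariate Tagln stood at 0.96, Eln at -0.30 and Fn1 at 0.26, none past the threshold. Their sum was 67.6 to 100 FPKM at day 7 and 124 to 136 FPKM in saline. The overlap of the mean log2 level used in this fit was not computed, so it may not tell the markers apart from the group.

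At day 1 and day 3 over doses, and over all soman groups, 0 of the 9 genes passed against saline by limma, beside 0.381%, 16% and 2.57% of all genes. Before adjustment, 1 gene at day 1, 1 at day 3 and 2 over all soman groups had a p under 0.05. The gene at day 1 was Eln, with 6 of 9 libraries above every saline library and a difference of 0.36 (SE 0.14, limma adjusted p = 0.46).

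Of 108 comparisons of a gene in a single soman group with saline, 8 passed. At day 7, Tagln (0.52, limma adjusted p = 0.017) and Eln (-0.50, limma adjusted p = 0.044) passed at 1/10 LD50, Eln (-0.59, limma adjusted p = 0.019) and Fn1 (-0.42, limma adjusted p = 0.032) at 1/5 LD50, and Fn1 (-0.67, limma adjusted p = 0.0020) at 1/2 LD50. These are beside 19.5%, 15.4% and 8.39% of all genes at the 3 doses. At day 14, Pdgfrb (-0.38, limma adjusted p = 0.027), Eln (-0.85, limma adjusted p = 0.017) and Fn1 (-0.62, limma adjusted p = 0.025) passed at 1/10 LD50, beside 0.435% of all genes, and by limma 0 at 1/5 or 1/2 LD50, beside 0.163% and 0.415%, where 3 and 4 of the 9 genes had an unadjusted p under 0.05. Fn1 at 1/2 LD50 on day 7 passed without any 1 of its 6 libraries (limma adjusted p of 0.0018 to 0.022). With the meningeal covariate it changed sign to 0.092 (limma adjusted p = 0.94), as did Fn1 at 1/5 LD50 on that day, to 0.39 (limma adjusted p = 0.65). In both groups the summed meningeal markers lay wholly below those of saline. The overlap of the mean log2 level used in these fits was not computed, so they may not tell the markers apart from the group.

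The other 7 of these calls were each lost without some single library. At 1/10 LD50 on day 7, Tagln was lost without saline replicate 2 or 3 (limma adjusted p = 0.051 and 0.060) or soman replicate 3 (0.066). Eln in that group was lost without saline replicate 2 or 3 (limma adjusted p = 0.17 and 0.12) or soman replicate 2 or 3 (0.12 and 0.36), and without both soman replicates 2 and 3, those of high mitochondrial share, it was at -0.0036. At 1/5 LD50 on day 7, Eln was lost without saline replicate 2 or 3 (limma adjusted p = 0.099 and 0.069) or soman replicate 3 (0.12). Fn1 there was lost without saline replicate 1, 2 or 3 (limma adjusted p = 0.11, 0.054 and 0.069) or soman replicate 1 or 3 (0.19 and 0.098). At 1/10 LD50 on day 14, Eln was lost without saline replicate 2 or 3 (limma adjusted p = 0.15 and 0.079) or soman replicate 1 or 2 (0.10 and 0.12). Pdgfrb and Fn1 there were lost without any 1 of the 6 libraries (limma adjusted p of 0.067 to 0.19 and of 0.068 to 0.16).

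At day 1 and day 3, 0 of the 9 genes passed against saline in any single group by limma, beside 0.347%, 0.0136% and 0.116% of all genes at 1/10, 1/5 and 1/2 LD50 on day 1, and 6.97%, 8.6% and 8.44% on day 3. At an unadjusted p under 0.05 there were 3 genes at 1/2 LD50 on day 1 and 1 at 1/5 LD50 on day 3. At 1/2 LD50 on day 1 all 3 libraries of Eln, Fn1, Pdgfrb, Rgs5, Myh11 and Tagln lay above every saline library. How many of all tested genes were placed so was not counted, and the 3 saline libraries of Myh11 spanned only 1.37 to 1.43 FPKM. The differences at 1/2 LD50 on day 1 were 0.66 for Eln (SE 0.17, limma adjusted p = 0.16) and 0.24 for Pdgfrb (SE 0.083, limma adjusted p = 0.39).

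Between doses over days, 0 of the 9 genes passed by limma in any of 3 comparisons. All genes passed at 0.0408% for 1/2 against 1/10 LD50, 6.56% for 1/5 against 1/10 LD50 and 0.0068% for 1/2 against 1/5 LD50. At an unadjusted p under 0.05 there were 2, 0 and 2 of the 9 genes. The F-test of any difference among doses called 0 of 9 genes by limma, of which Acta2 and Myh11 were under 0.05 before adjustment (limma adjusted p = 0.21 and 0.11), beside 1.9% of all genes. The F-test of a dose effect that differs between days also called 0 of 9 genes by limma, of which Eln and Fn1 were under 0.05 before adjustment (limma adjusted p = 0.20 and 0.17), beside 1.59% of all genes.

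Within a day, 1/2 and 1/5 LD50 were each compared with 1/10 LD50 and not with each other, and the calls in these comparisons were at day 7. Fn1 was at 7.45, 7.08 and 8.82 FPKM at 1/2 LD50 and at 10.0, 11.1 and 12.7 FPKM at 1/10 LD50, with no overlap, a difference of -0.48 (SE 0.13, limma adjusted p = 0.015) beside 17.7% of all genes in that contrast. It was lost without 1/10 LD50 replicate 3 (limma adjusted p = 0.13) and without 1/2 LD50 replicate 1 or 2 (limma adjusted p = 0.070 and 0.057), and without both libraries of high mitochondrial share (limma adjusted p = 0.67). At the other days 0 of the 9 genes passed by limma against 1/10 LD50. For 1/2 against 1/10 LD50 the shares of all genes were 0.238% at day 1, 0% at day 3 and 0.0068% at day 14, with 2, 1 and 0 of the 9 genes at an unadjusted p under 0.05. For 1/5 against 1/10 LD50 they were 0% at day 1, 0% at day 3 and 0.0408% at day 14, with 0, 0 and 1 of the 9 genes.

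Genes of the same structures were described by lists, with no test of the lists, which like the 9 genes were chosen with earlier results of these data known. Over all tested genes, 7.67% were lower and 7.27% higher at day 14 than at day 1, and 0.748% were lower and 0.156% higher at day 14 than in saline. Of 13 basement membrane genes 12 were lower at day 14 than at day 1 and none was higher, with a median of -0.29 beside 0.0060 over all genes. Col4a1, a chain of type IV collagen, averaged 10.4 FPKM at day 14 and 14.6 FPKM at day 1, a difference of -0.45 (limma adjusted p = 1.3e-07). Hspg2, which encodes perlecan, differed by -0.43 (limma adjusted p = 4.2e-06) and Nid1, which encodes nidogen, by -0.50 (limma adjusted p = 4.3e-05). Lama2 at -0.14 did not pass (limma adjusted p = 0.17). Against saline at day 14, 6 of the 13 were lower and none higher.

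Of 17 tested pericyte genes 10 were lower at day 14 than at day 1 and none higher, with a median of -0.30. Among them, Notch3, a receptor of mural cells, averaged 3.08 FPKM at day 14 and 4.35 FPKM at day 1, at -0.39 (limma adjusted p = 0.00013), and Heyl, a target of Notch signalling, was at -0.42 (limma adjusted p = 3.2e-05). Kcnj8, the pore subunit that partners Abcc9, was at -0.19 (limma adjusted p = 0.044), while the other partners in that list of 3, Kcnj11 and Abcc8, were at 0.01 each and did not pass. Higd1b, another pericyte gene, was at -0.13 (limma adjusted p = 0.39).

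Of 14 tested elastic fibre genes 8 were lower at day 14 and none higher, with a median of -0.18. Fbn1, the fibrillin on which elastin is laid down, averaged 0.923 FPKM at day 14 and 1.64 FPKM at day 1, at -0.45 (limma adjusted p = 3.1e-08). Ltbp4, which binds latent TGF-beta and takes part in elastic fibre assembly, was at -0.29 (limma adjusted p = 0.00089), and Loxl1, a cross-linking oxidase, was at -0.16 (limma adjusted p = 0.045). Ltbp3 at -0.10 did not pass (limma adjusted p = 0.41).

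Of 17 tested contractile genes of smooth muscle 2 were higher and 2 lower, shares near the 7.27% and 7.67% of all genes, with a median of -0.06. Flna, which encodes the actin cross-linker filamin A and is found in many cell types, was lower at -0.33 (limma adjusted p = 2.9e-05), and Pcp4l1 was higher at 0.18 (limma adjusted p = 0.041). Pcp4l1 and Tpm1, the other higher gene, averaged 54.4 and 65.2 FPKM over all libraries, against 3.2 FPKM for Acta2. Which cells the RNA of the listed genes came from was not measured, so the counts do not describe smooth muscle alone. Myl9, a myosin light chain, at -0.14 (limma adjusted p = 0.18) and Tpm2, a tropomyosin, at 0.13 (limma adjusted p = 0.19) did not pass.

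Of 6 ligands and receptors of the platelet-derived growth factor family, Pdgfb, the ligand of Pdgfrb, was higher at day 14 (6.54 FPKM against 5.38 FPKM at day 1, 0.24, limma adjusted p = 0.015). Pdgfra, the alpha receptor, which oligodendrocyte precursors and meningeal cells carry, was lower (7.66 FPKM at day 14 against 9.76 FPKM at day 1, -0.31, limma adjusted p = 3.0e-05). Of 8 tested integrin genes, not all of them receptors of fibronectin or vitronectin, 3 were lower and none higher. They were Itgb1 at -0.16 (limma adjusted p = 0.024), Itga4 at -0.22 (limma adjusted p = 0.0053) and Itga1 at -0.13 (limma adjusted p = 0.049). Among those that did not pass were Itgav at -0.03, Itgb5 at -0.01 and Itgb8 at -0.11 (limma adjusted p = 0.84, 0.93 and 0.32). Of the 5 tested relatives of Rgs5 in the R4 family, Rgs2 (0.34, limma adjusted p = 4.0e-05) and Rgs16 (0.19, limma adjusted p = 0.025) were higher and none was lower.

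Of 16 endothelial markers 2 were higher and 4 lower at day 14 than at day 1, with a median of -0.09. Kdr, the main receptor of vascular endothelial growth factor, was at -0.51 (limma adjusted p = 4.1e-07), and Slc2a1, the glucose transporter of the blood-brain barrier, was at 0.25 (limma adjusted p = 0.020). The summed endothelial markers ran from 179 to 211 FPKM at day 14, 165 to 232 FPKM at day 1 and 182 to 192 FPKM in saline. Their part in the results of the 9 genes was not tested. The microglial list had 4 of 6 lower, the astrocyte list 2 of 6, the oligodendrocyte list 2 of 4 and the choroid plexus list 0 of 8, with none higher, and the neuronal list had 1 of 6 higher and none lower.

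**Figure D4:**
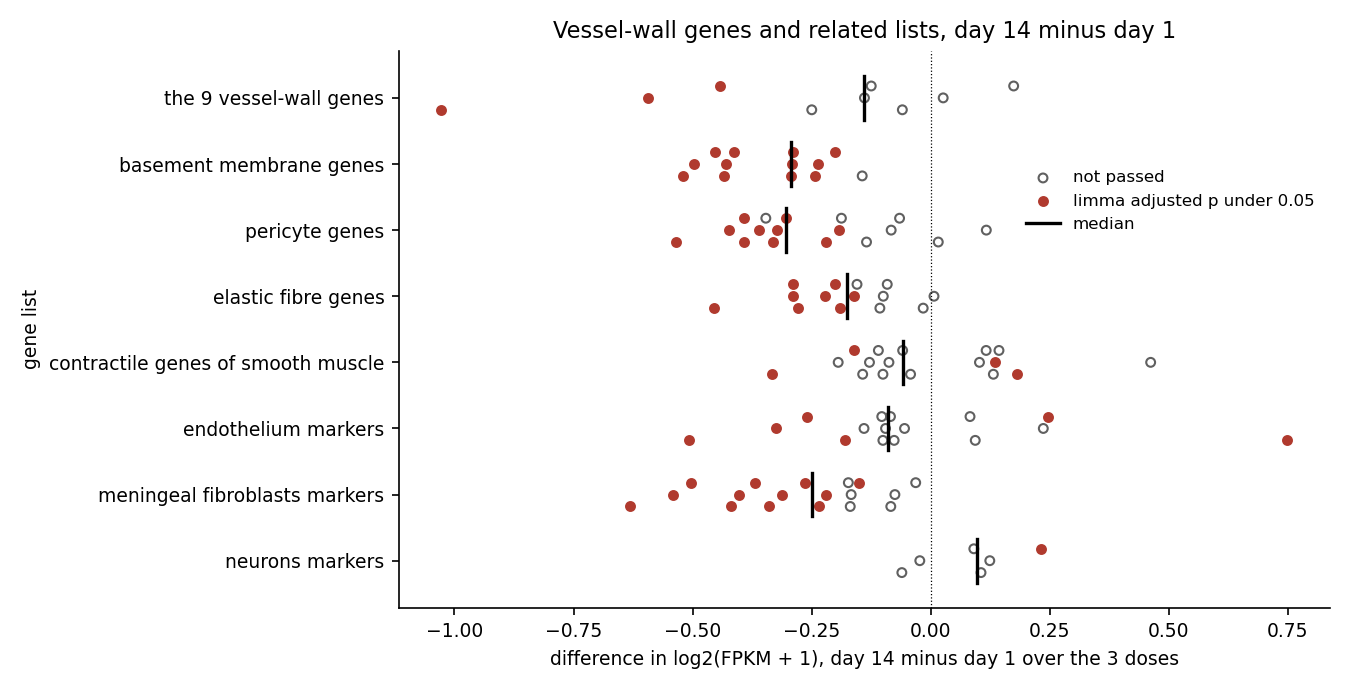
Difference in log2(FPKM + 1) between day 14 and day 1 over the 3 doses for each tested gene of 8 lists (points; filled where the limma adjusted p was under 0.05), with the list median as a bar. Medians were -0.14 for the 9 genes, -0.29 for basement membrane, -0.30 for pericyte, -0.18 for elastic fibre and -0.06 for contractile genes, -0.09 for endothelial, -0.25 for meningeal and 0.10 for neuronal markers.

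Over all 39 libraries, the genes whose log2 level was most like each of the 9, among 11095 genes at a mean of 2 FPKM or more, fell into unlike groups. The points share their group and library, so r is a description with no p. Eln was most like Lama4 (a laminin chain, r = 0.89), Ncstn (0.82) and Col4a1 (0.81). Pdgfrb was most like Lama4 (r = 0.85), Col4a2 (0.83) and Col4a1 (0.82). Fn1 was most like Lamc1, another laminin chain (r = 0.82), Nid1 (0.79) and Gjb2 (0.76). Thus the genes nearest to the 3 that fell by day 14 were mostly basement membrane genes. Vtn was most like Tubb2b (r = 0.83), Ppox (0.83) and Pomt1 (0.82), and Abcc9 like Cdc42ep1 (0.72), Kcnj10 (0.71) and Cpt2 (0.66). For the remaining 4 no r was above 0.64: Rgs5 with Slco2b1 (0.64), Rhoc (0.64) and Unc93b1 (0.63), Myh11 with Trp53bp2 (0.60), Myl9 (0.60) and Tbc1d9b (0.59), Acta2 with Cntfr (0.58), Aggf1 (0.57) and Tmem192 (0.55), and Tagln with Spry1 (0.58), Il18 (0.56) and Aida (0.54).

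Within groups, after each library's deviation from its group mean was taken, 3 of 36 pairs of the 9 genes passed both by Pearson's r and by Spearman's rho in a permutation test within groups (adjusted over the 36 pairs, two-sided). Acta2 and Myh11 varied together (Pearson's r = 0.71, Spearman's rho = 0.70, n = 39 libraries, permutation p = 5e-05 for r and 7e-05 for rho, adjusted p = 0.0018 and 0.0025), and r was 0.70 without the 2 farthest libraries. Farthest means from the median deviation of the first gene named in a pair, so far libraries of the second gene stayed in. Myh11 and Pdgfrb had r = 0.57 and rho = 0.57 (permutation p = 0.0011 and 0.0013, adjusted p = 0.019 and 0.023), and r was 0.55 without the 2 farthest libraries. Abcc9 and Fn1 had r = 0.53 and rho = 0.55 (permutation p = 0.0032 and 0.0045, adjusted p = 0.038 and 0.040), and r was 0.55 without the 2 farthest libraries. Pdgfrb and Eln, at r = 0.87 over all libraries, had r = 0.56 and rho = 0.43 within groups and did not pass (permutation p = 0.019 and 0.038, adjusted p = 0.096 and 0.14). Pdgfrb and Vtn passed by rho (0.54, permutation p = 0.0038, adjusted p = 0.040) and not by r (0.51, permutation p = 0.0093, adjusted p = 0.075). By r, 1 of the 36 pairs passed over the 31 libraries left without those of high mitochondrial share and those between others.

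**Figure D5:**
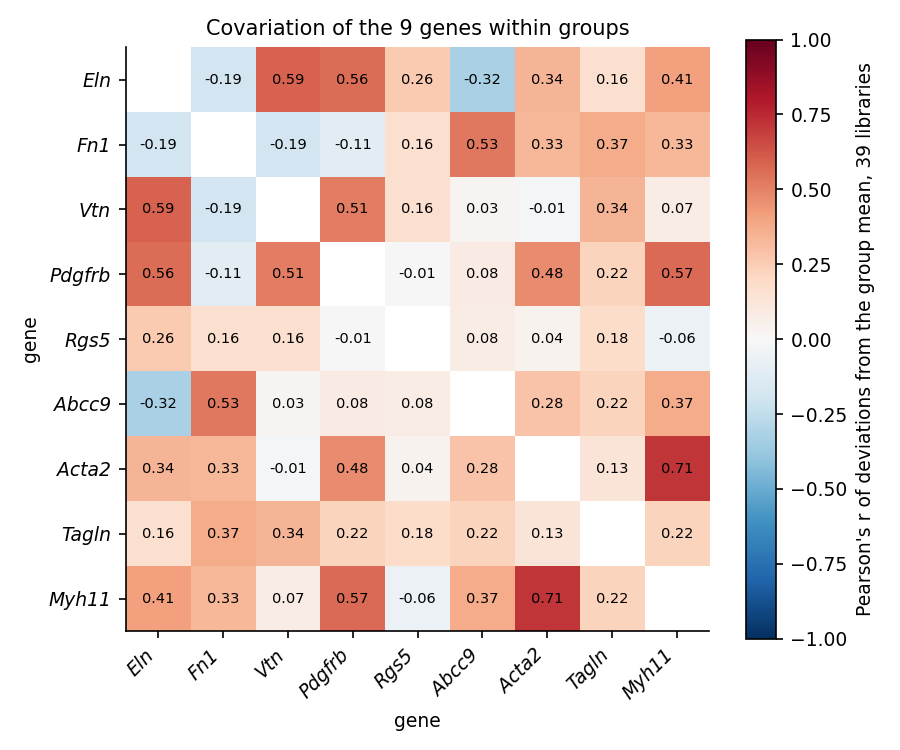
Pearson's r between each pair of the 9 genes over the deviations of 39 libraries from their group means (colour scale from -1 to 1, values printed in the cells). The highest value is 0.71 for Acta2 and Myh11, while Eln and Fn1, which both fell by day 14, stand at -0.19.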

How the data were processed

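Brain RNA of 36 soman and 3 saline libraries was analysed from the FPKM values that the authors deposited in 1 table. Trizol extraction and poly(dT) selection are stated per the labels' protocols. Per the submitters' processing notes, HISAT2 and GRCh38 were named, although the samples are mouse, and versions are not given in the sources used here. Low FPKM values gave no whole reads (at most 0.76% of values shared the commonest ratio), so depth is unknown.

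Genes at 1 FPKM or more in at least 3 libraries (14701, all 9 members) were fitted with limma 3.58.1 in R 4.3.3 on log2(FPKM + 1), with 13 group means in 1 model, a mean-variance trend and Benjamini-Hochberg adjustment over all genes. The threshold was an adjusted p of 0.05. Correlations used 100000 permutations within groups (numpy 2.4.6). The fit was tested on simulated data. The promoter came from the RefSeq table for GRCm38.p6.

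The members and lists were chosen with earlier results of these data known. Other genes were named mostly by rule: the 3 most like each member, the defining markers of brain cell types, and up to 3 genes of each list with the smallest p in the F-test among days and in all soman against saline. Some, such as Srf, Tpm1 and Itgb5, were named outside that rule, and not every gene it picks is named. Alternatives were another pseudocount, no filter, other scaling, a replicate block, libraries left out, and, chosen after seeing the data, a length trend and 2 marker covariates.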

Additional observations from a re-analysis of the deposited data

Results flagged for a closer look

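Eln, Fn1 and Pdgfrb were singled out because their difference from saline at day 14 differed from that at day 1. The saline term cancels in that comparison, so it equals day 14 minus day 1, and it came to -1.03 for Eln, -0.59 for Fn1 and -0.44 for Pdgfrb in log2(FPKM + 1).

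The same genes at 1/2 LD50 had all 3 libraries of day 14 below every saline library and all 3 of day 1 above. Day 14 minus day 1 at that dose was -1.36 for Eln, -0.64 for Fn1 and -0.53 for Pdgfrb. Fn1 at 1/2 LD50 also had all 3 libraries of day 7 below and all 3 of day 1 above, with day 7 minus day 1 at -0.89. These differences within 1 dose were not tested. The genes and this dose were picked by where their libraries lay against saline. How many of all tested genes lay so was not counted.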

How the results depend on the processing

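Of 27 calls, Eln at day 14 against day 1 passed under all 28 alternatives (-1.19 to -0.92), and Pdgfrb and Fn1 under 27 of 28, the meningeal covariate being the exception. Counts of the 9 genes called are given where they moved by over 1.5 times, where the replicate block changed them, and with single libraries left out. For single soman groups against saline (8), they were 4 with no filter, 1 without the 7 libraries that lay between others, 4 with a length trend removed, 3 with the blood covariate, 0 with the meningeal covariate, 5 where the model held no other groups, and 1 to 11 with single libraries left out. For doses within a day (2), they were 1 with no filter, 0 without the 2 libraries of high mitochondrial share, 0 without the 7, 0 with the meningeal covariate, 3 with the replicate block, and 0 to 4 with single libraries left out. For day 7 against saline (3), they were 1 with no filter, 0 without the 7, 0 with the meningeal covariate, and 1 to 3 with single libraries left out. For day 14 against saline (3), they were 0 without the 7, 0 with either covariate, and 0 to 3 with single libraries left out. For day 3 against day 1 (3), they were 1 with no filter, 0 without the 7, 0 with the meningeal covariate, 2 with the replicate block, and 1 to 3 with single libraries left out. For day 7 against day 3 (2), they were 1 with no filter, median-ratio scaling, the replicate block, a length trend removed, without the 2 or without the 7, 0 with the meningeal covariate, and 1 to 3 with single libraries left out. For day 14 against day 7 (3), they were 1 without the 7, 1 with the blood covariate, and 2 to 4 with single libraries left out. For day 14 against day 1 (3), they were 1 with the meningeal covariate and 3 to 4 with single libraries left out. The F-test among days (5) called 3 without the 7 and 4 to 6 with single libraries left out, and that of interaction (0) called 0 to 1. Counts that moved less also covered lost calls: day 7 against saline lost Eln without the 2, with a length trend removed and where the model held no other groups; day 14 against day 7 lost Vtn with no filter and with the meningeal covariate; and day 3 against day 1 lost Acta2 with median-ratio scaling, a length trend removed and the replicate block, and Eln with the blood covariate. Correlated pairs (3) were 1 without the libraries in doubt. Fn1 turned round with the meningeal covariate, to 0.39 at 1/5 LD50 on day 7 against saline, 0.092 at 1/2 LD50 on day 7 against saline, 0.26 at day 7 over doses against saline and 0.10 at day 3 against day 1. The cause was not tested, and at day 7 the summed meningeal markers did not overlap those of saline. Replicate numbers did not pair the libraries: over 234 pairs with the same number the mean correlation of deviations was -0.0029, and 14 of 39 libraries correlated best with their own number. The unknown depth limits the low genes most, Tagln first.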
